A study of Mus musculus with 17 samples.

Results

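The aldehyde dehydrogenases described here are 10 genes of the family: Aldh1a1, Aldh1a2, Aldh1a3, Aldh1a7, Aldh1l2, Aldh2, Aldh3a1, Aldh3a2, Aldh3b1 and Aldh18a1. They were taken by name from the 55450 genes of the bulk expression table, and the mouse annotation holds 21 family genes in all. Expression was measured by bulk RNA-seq of cultured lines in 7 groups of 2 libraries, 14 in all, and by single-cell RNA-seq in 3 libraries. All cells descended from female FVB/NJ mice, 10 to 12 weeks old, that carry the polyoma middle T oncogene under the mouse mammary tumor virus promoter (MMTV-PyMT), which drives mammary tumors. The MFP group came from the primary tumor in the mammary fat pad, and its labels give no CD44 status. The other 6 groups were lines grown from lymph node (LN), bone marrow (BM) or lung, each sorted as CD44low or CD44high among EpCAMhigh cells after about a month in culture. The 2 libraries of a group were separate clonal isolates from different mice, so each line stands for 1 clone. The 3 single-cell libraries were lung CD44high (lungH), lung CD44low (lungL) and lymph node CD44high (lymphH). The study's methods give 2 replicates for each single-cell sample, as distinct clonal isolates of different mice. The labels number lungH and lungL as a first replicate and give lymphH no number, so whether lymphH holds 1 clonal isolate or more is not known. CD44 is a surface receptor for hyaluronan, and EpCAM is an adhesion molecule of epithelial cells.

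Aldehyde dehydrogenases oxidize aldehydes to carboxylic acids with NAD or NADP as the acceptor. ALDH1A1, ALDH1A2 and ALDH1A3 make retinoic acid from retinaldehyde, ALDH2 clears acetaldehyde in mitochondria, and the ALDH3 enzymes act on aromatic and fatty aldehydes. In mammary tissue and mammary tumors, high aldehyde dehydrogenase activity is widely used to sort cells with stem-like properties. ALDH18A1 and ALDH1L2 serve biosynthesis instead, in proline synthesis and in mitochondrial folate metabolism.

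A pair of members lie side by side on chromosome 19 of mm10 (GENCODE M21 coordinates). Aldh1a1 (ENSMUSG00000053279.8) runs on the plus strand from 20492715 to 20643465, and Aldh1a7 (ENSMUSG00000024747.3), a rodent paralog, on the minus strand from 20692953 to 20727562, with 49487 bases between them. Their coding sequences were each 1503 bases long and identical at 1377 bases (91.6%). Of all the 50-base stretches in Aldh1a7 transcripts, 7.49% also occurred in Aldh1a1 transcripts, so reads from those stretches cannot be assigned to one gene by sequence. No other pair of members shared such a stretch. Aldh3b1 (3913491 to 3929808) and Aldh18a1 (40550257 to 40588463) also lie on chromosome 19, and Aldh3a1 (61207537 to 61218421) and Aldh3a2 (61223417 to 61267464) are neighbors on chromosome 11.

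Promoters of Aldh1a genes are shown because the bulk transcript levels of Aldh1a1 and Aldh1a7 differed widely within the same lung CD44low libraries, as given after them. RefSeq promoter windows of build GRCm38.p6 were held for 6 of the 10 members. Each sequence covers the 250 bases before a transcript start, read in the direction of transcription, with the motifs CCAAT and ATGCAAAT (the octamer motif) in capitals. The Aldh1a1 window lies inside the gene, at its downstream start (chr19:20601718-20601967, plus strand), the Aldh1a7 window is chr19:20727557-20727806 on the minus strand, and the Aldh1a2 window is chr9:71215539-71215788 on the plus strand.
Aldh1a1: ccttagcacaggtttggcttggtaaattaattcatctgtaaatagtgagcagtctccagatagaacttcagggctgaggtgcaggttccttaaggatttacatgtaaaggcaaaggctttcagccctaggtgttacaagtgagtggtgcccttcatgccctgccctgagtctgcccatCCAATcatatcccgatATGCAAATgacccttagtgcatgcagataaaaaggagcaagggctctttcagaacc
Aldh1a7: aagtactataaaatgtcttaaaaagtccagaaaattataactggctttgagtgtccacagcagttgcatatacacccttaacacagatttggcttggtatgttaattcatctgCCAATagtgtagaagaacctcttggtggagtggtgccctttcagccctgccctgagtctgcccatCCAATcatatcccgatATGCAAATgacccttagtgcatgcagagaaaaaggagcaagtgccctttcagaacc
Aldh1a2: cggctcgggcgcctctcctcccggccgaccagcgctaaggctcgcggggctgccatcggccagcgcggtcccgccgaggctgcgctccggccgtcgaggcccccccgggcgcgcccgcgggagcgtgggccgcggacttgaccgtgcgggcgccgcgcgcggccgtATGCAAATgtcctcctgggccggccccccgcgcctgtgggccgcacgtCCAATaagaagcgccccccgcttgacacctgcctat
All 3 windows held both motifs, and Aldh1a7 held a second CCAAT farther from the start. Of the other motifs searched, the TATA motif TATAAA occurred in the Aldh1a7 window, from 244 to 239 bases before the start. The Aldh1a2 window held the antioxidant response motif TGACNNNGC and the aryl hydrocarbon receptor core motif GCGTG. The GC box GGGCGG and the AP-1 motif TGACTCA occurred in none of the windows shown, and the Aldh1a1 window shown held none of these further motifs. The window of the upstream Aldh1a1 start (chr19:20492333-20492582) held neither CCAAT nor ATGCAAAT, but held TGACTCA from 57 to 51 bases before its start. In Aldh1a1 and Aldh1a7 the octamer stood at the same place, from 56 to 49 bases before the start, within an unbroken run of 65 identical bases. Over the aligned bases the windows of Aldh1a1 and Aldh1a7 were 73.6% identical, and the Aldh1a2 window differed in its GC content, at 77.6% against 46.4% in Aldh1a1 and 43.2% in Aldh1a7. Searched on both strands, ATGCAAAT occurred in 1.60% and CCAAT in 33.8% of the 32851 windows of this length. TATAAA occurred in 12.4% of them, TGACNNNGC in 10.2%, GCGTG in 28.2% and TGACTCA in 4.46%. These matches are a description of the letters, and no binding was measured here.

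The labelled cell type was checked first. Epcam was between 315 and 941 TPM (transcript abundance scaled to the same total in every library) in the 10 MFP, LN and BM libraries, was listed at 0 in both lung CD44low libraries, and was 0.23 and 0.86 TPM in the lung CD44high libraries. The summed TPM of 7 epithelial markers was 2091 to 7708 outside lung, 15.7 and 87.5 in lung CD44high, and 1.74 and 2.36 in lung CD44low. The summed TPM of 8 fibroblast markers was 4708 and 5117 in lung CD44low, 85.7 and 194.8 in lung CD44high, and at most 19.9 elsewhere. In lung CD44high Dcn alone gave 78.9 and 166.3 TPM of these sums and Pdgfra 4.51 and 21.45 TPM. Col1a1, Col1a2, Lum and Thy1 were at most 0.08 TPM there. Dcn had 0 counts in the lungH single cells. The summed TPM of 4 smooth muscle markers was 755 and 821 in lung CD44low and at most 7.04 elsewhere. Of 5 macrophage markers, Lyz2 was highest in lung CD44low, at 35.2 and 34.75 TPM, while Cd68 was highest in MFP, at 10.44 and 22.45 TPM, against 3.67 and 3.96 TPM in lung CD44low. The defining markers Ptprc, Csf1r and Adgre1 were at most 0.69 TPM in every library. Of the defining markers, Dcn reached 4091 and 4315 TPM and Thy1 29.1 and 68.0 TPM in lung CD44low, while Thy1 was listed at 0 in every other library. Cd44 transcripts did not follow the sort. They were 12.1 to 21.95 TPM in the lung libraries and 43.8 to 399.9 TPM elsewhere. In LN they were 146.7 and 82.7 TPM in CD44low and 49.0 and 52.3 TPM in CD44high. In BM they were 43.8 and 74.9 TPM in CD44low and 50.5 and 49.0 TPM in CD44high. Within lung they were 12.2 and 21.6 TPM in CD44low and 21.95 and 12.1 TPM in CD44high. In single cells Cd44 ran against the labels within lung, at 8.51 (8.13 to 8.90) counts per 10000 in lungL and 4.99 (4.70 to 5.29) in lungH (95% exact Poisson intervals). The libraries of both lung groups therefore stood apart from their EpCAMhigh label. The part of these differences in the values below was not tested, and in bulk samples fewer cells of a type cannot be told apart from less RNA per cell.

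The family member with the most transcripts differed between groups, and within lung it differed between the CD44low and CD44high libraries. Aldh2 led in the MFP, LN and lung CD44high libraries, Aldh3a1 in the BM libraries and Aldh1a1 in the lung CD44low libraries. The 10 members summed to 207.5 and 222 TPM in the MFP libraries, to between 307 and 536 TPM in the LN libraries, to 862 and 446 TPM in BM CD44low, and to 1494 and 1525 TPM in BM CD44high. In lung, the sum was 945 and 996 TPM for CD44low and 600.02 and 667 TPM for CD44high. The 2 MFP libraries were thus the lowest of the 14.

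**Figure D1:**
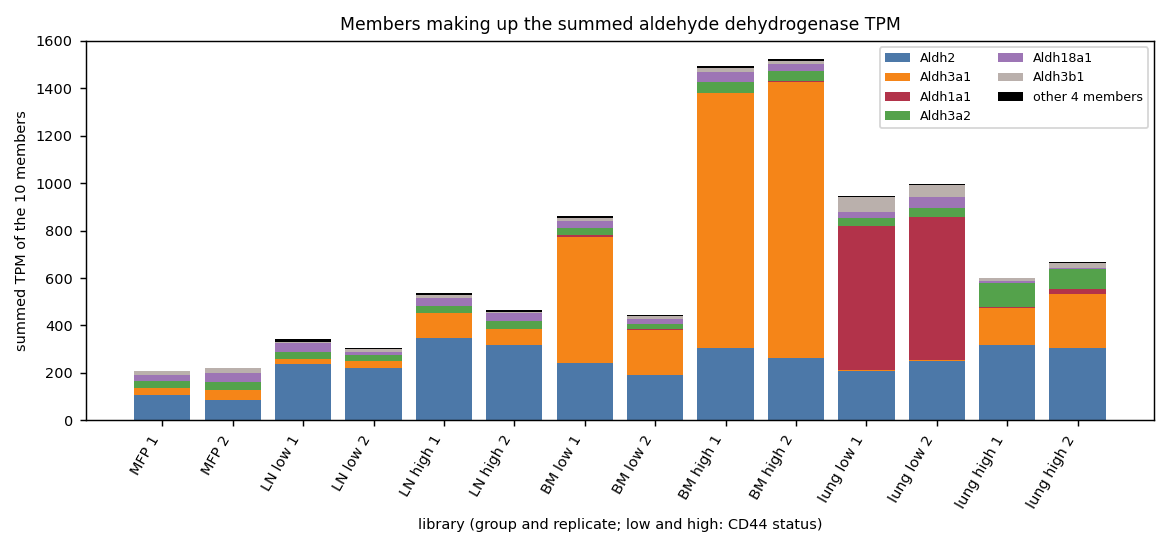
Stacked bars give the summed TPM (vertical axis) of the 10 members in each of the 14 bulk libraries (horizontal axis), colored by gene. Aldh3a1 makes up 71.8% and 76.3% of the sum in the BM CD44high libraries, and Aldh1a1 64.6% and 60.3% in the lung CD44low libraries.

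Of the 10 members, 8 reached 1 TPM in at least 2 libraries and were tested among 15348 genes. Differences are in log2(TPM + 1), fitted with limma over all 7 groups, and a gene was called when its Benjamini-Hochberg adjusted p was under 0.05 and its difference was beyond 2 in either direction. The 6 comparisons with MFP share the same 2 MFP libraries. Aldh1a2 and Aldh1a7 were not tested.

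**Figure D2:**
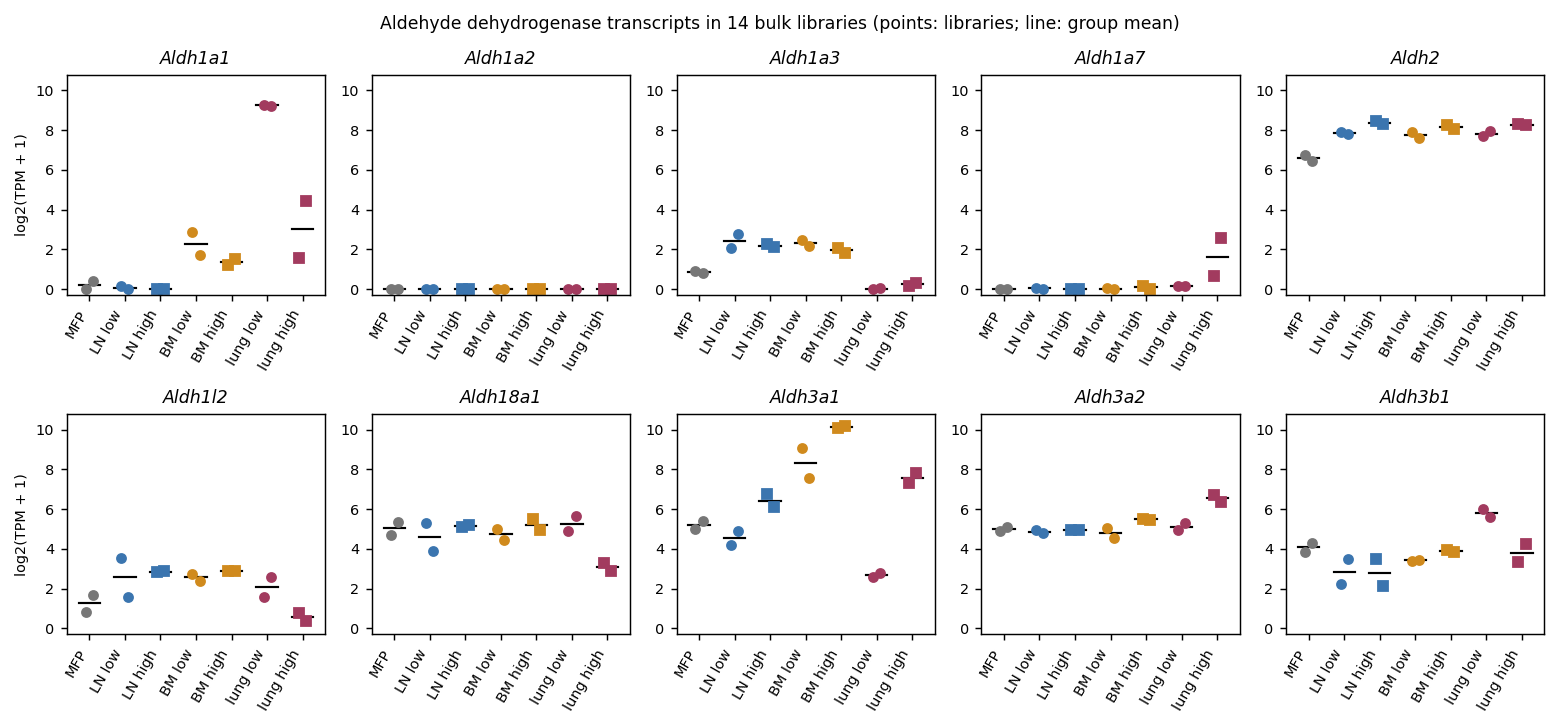
Each panel shows 1 member, with log2(TPM + 1) on the vertical axis, the 7 groups on the horizontal axis, 1 point per library (circles CD44low and MFP, squares CD44high) and a line at the group mean. Aldh1a1 is high in both lung CD44low libraries, and Aldh3a1 ranges from 5.01 TPM in lung CD44low to 1164 TPM in BM CD44high.

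Among the retinaldehyde dehydrogenases, Aldh1a1 stood out in lung CD44low cells. It was 610.2 and 600.6 TPM there, 1.99 and 20.9 TPM in lung CD44high, 6.25 and 2.33 TPM in BM CD44low, 1.35 and 1.83 TPM in BM CD44high, 0.11 and 0 TPM in LN CD44low, 0 and 0.34 TPM in MFP, and listed at 0 in both LN CD44high libraries. The lung CD44low libraries did not overlap with any other group, and the lung CD44high libraries ranged over the BM CD44low values. Against MFP, Aldh1a1 rose by 9.03 ± 0.74 (SE, n = 2 and 2) in lung CD44low (adjusted p = 6.68e-06). It was 2.81 ± 0.74 higher in lung CD44high (adjusted p = 0.0143), and without the second lung CD44high library the difference was 1.37 and the call was lost. The call was also lost without the first MFP library and when only these 2 groups were fitted (adjusted p = 0.166). Over the alternatives other than leaving out a library, the difference from MFP ran from 2.74 to 4.98 in lung CD44high. In lung CD44low it ran from 8.92 to 11.5. Within lung, Aldh1a1 fell by 6.23 ± 0.74 from CD44low to CD44high (adjusted p = 0.000153), and the difference was between -7.66 and -4.79 when either lung CD44high library was left out.

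Aldh1a7, with the same octamer and CCAAT positions in its promoter window, did not follow Aldh1a1 in the bulk libraries. It was 0.12 and 0.13 TPM in lung CD44low, where Aldh1a1 exceeded 600 TPM, and 0.57 and 4.99 TPM in lung CD44high. No library outside lung exceeded 0.13 TPM. The highest Aldh1a7 value was thus in the second lung CD44high library, which also had the higher Aldh1a1 value of that group. Aldh1a2 was listed at 0 in all 14 libraries.

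Aldh1a3, the remaining retinaldehyde dehydrogenase, had the reverse distribution at low levels. It was 3.20 and 5.89 TPM in LN CD44low, 3.79 and 3.34 TPM in LN CD44high, 4.64 and 3.53 TPM in BM CD44low, 3.24 and 2.57 TPM in BM CD44high, 0.87 and 0.78 TPM in the MFP libraries, 0 and 0.04 TPM in lung CD44low, and 0.13 and 0.24 TPM in lung CD44high. The 4 lung libraries lay below all 8 LN and BM libraries. Against LN and BM together, Aldh1a3 fell by 2.09 ± 0.16 in lung (adjusted p = 3.64e-06). The size depends on the pseudocount, since the lung values are near 0 TPM, and was -4.37 with a pseudocount of 0.1. Its differences from MFP in the LN and BM groups, 1.09 to 1.56 with adjusted p between 0.00362 and 0.0146, passed the test of p but not the fold threshold.

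Aldh3a1, which oxidizes aromatic and medium-chain aldehydes, was called higher in 3 groups and lower in 1 against MFP. It was 1073 and 1164 TPM in BM CD44high, 532 and 192 TPM in BM CD44low, 158 and 229 TPM in lung CD44high, 106 and 69.1 TPM in LN CD44high, 30.8 and 41.4 TPM in the MFP libraries, 17.1 and 29.0 TPM in LN CD44low, and 5.01 and 5.88 TPM in lung CD44low. Each group lay apart from its neighbor in this order, with 1 exception, the BM CD44low and lung CD44high libraries, which overlapped. In each of the 3 tissues both CD44high libraries were above both CD44low libraries.

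Against MFP, Aldh3a1 rose by 3.13 ± 0.45 in BM CD44low (adjusted p = 0.000901), by 4.93 ± 0.45 in BM CD44high (adjusted p = 4.74e-05) and by 2.38 ± 0.45 in lung CD44high (adjusted p = 0.00246). It fell by 2.51 ± 0.45 in lung CD44low (adjusted p = 0.00141). The difference between CD44high and CD44low was 4.90 ± 0.45 in lung (adjusted p = 2.31e-05). In LN it was 1.90 ± 0.45 (adjusted p = 0.154) and in BM 1.80 ± 0.45 (adjusted p = 0.386), and neither passed. The call in BM CD44low was lost when only BM CD44low and MFP were fitted (adjusted p = 0.0794).

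Aldh3a2, the fatty aldehyde dehydrogenase of the endoplasmic reticulum, was 104 and 82.1 TPM in lung CD44high and lay between 22.3 and 44.4 TPM in the other 12 libraries. It was higher in lung CD44high than in lung CD44low by 1.42 ± 0.22 (adjusted p = 0.00096) and than in MFP by 1.53 ± 0.22 (adjusted p = 0.000524), both under the fold threshold. It lies next to Aldh3a1. In BM CD44high, where Aldh3a1 was at its highest, Aldh3a2 was 44.4 and 43.6 TPM. That was below lung CD44high and above every other library, of which the highest was 37.95 TPM in lung CD44low.

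Aldh3b1, which also acts on fatty aldehydes, was 63.25 and 47.55 TPM in lung CD44low and between 3.41 and 18.87 TPM in the other 12 libraries. From CD44low to CD44high in lung it was lower by a difference of -1.99 ± 0.51 (adjusted p = 0.0155), just inside the fold threshold and so not called. Against MFP it was 1.72 ± 0.51 higher in lung CD44low (adjusted p = 0.0207).

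Aldh2, the mitochondrial acetaldehyde enzyme, was abundant in every group and lowest in MFP. It was 107 and 85.3 TPM in the MFP libraries, 239 and 219 TPM in LN CD44low, 346 and 317 TPM in LN CD44high, 241 and 191 TPM in BM CD44low, 307 and 264 TPM in BM CD44high, 206 and 249.9 TPM in lung CD44low, and 316 and 306 TPM in lung CD44high. All 12 libraries of LN, BM and lung lines lay above both MFP libraries, and no library exceeded 346 TPM. The differences from MFP were 1.16 to 1.78, with adjusted p between 0.000114 and 0.00217, and none reached the fold threshold. With median-ratio scaling in place of TPM alone, LN CD44high (2.32) and BM CD44high (2.13) passed it. In each tissue both CD44high libraries were above both CD44low libraries, by 0.53 ± 0.19 in LN (adjusted p = 0.384), 0.41 ± 0.19 in BM (adjusted p = 0.624) and 0.45 ± 0.19 in lung (adjusted p = 0.106), differences that did not pass.

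The biosynthetic members were lowest in lung CD44high cells. Aldh18a1, which catalyzes the first steps of proline synthesis from glutamate, was 8.91 and 6.36 TPM there, 28.6 and 49.25 TPM in lung CD44low, and between 13.7 and 44.6 TPM in the other 10 libraries. The lung CD44high libraries lay below the remaining 12. From CD44low to CD44high in lung, Aldh18a1 fell by 2.17 ± 0.47 (adjusted p = 0.00667). The call was lost without the second lung CD44low library (-1.79) and without the second lung CD44high library. The difference from MFP, -1.94 ± 0.47 (adjusted p = 0.00964), was under the fold threshold.

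Aldh1l2, which oxidizes formyl-tetrahydrofolate in mitochondria, was 0.74 and 0.28 TPM in lung CD44high and between 0.79 and 10.58 TPM elsewhere. MFP was at 0.79 and 2.27 TPM, and the 2 libraries of LN CD44low differed widely, at 10.58 and 2.04 TPM. No comparison called Aldh1l2, and lung against LN and BM gave -1.38 ± 0.36 (adjusted p = 0.00777).

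**Figure D3:**
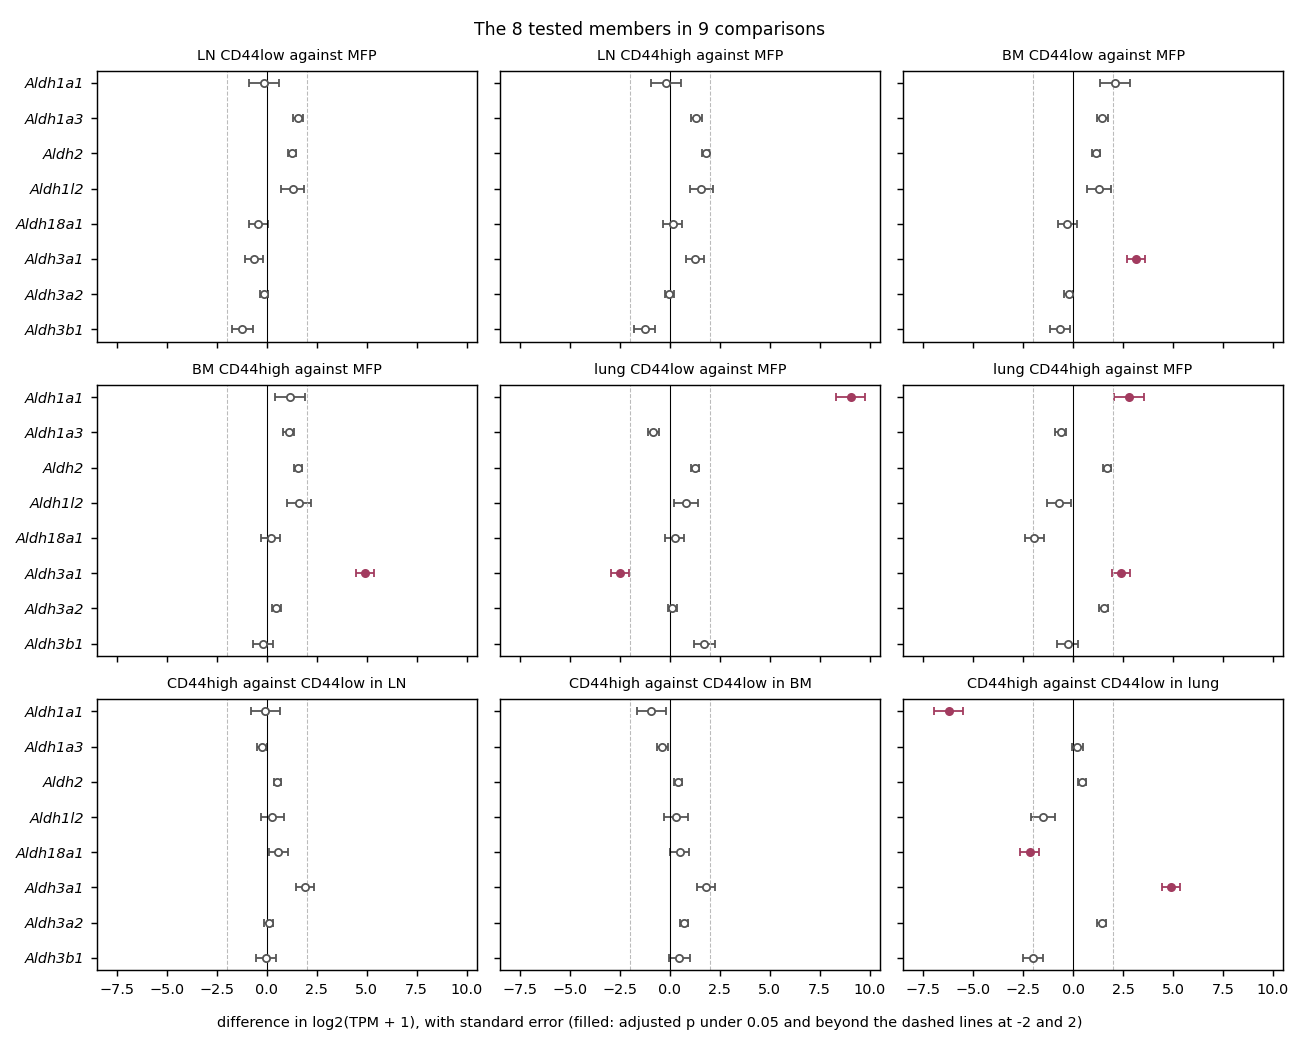
Each panel is 1 of 9 comparisons, with the 8 tested members on the vertical axis and the difference in log2(TPM + 1) with its standard error on the horizontal axis. Filled points were called, and these are Aldh1a1, Aldh3a1 and Aldh18a1 only. Aldh1a1 in lung CD44low against MFP lies farthest from 0, at 9.03.

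The number of members called in each comparison is read against the share of all 15348 tested genes called by the same rule. No member was called in LN CD44low against MFP, where 2.07% of all tested genes were called higher and 2.72% lower, or in LN CD44high against MFP (2.44% higher and 3.68% lower); at an unadjusted p under 0.05 by limma, 3 and 5 of 8 members passed, beside 26.6% and 36% of all genes. In BM CD44low against MFP, 1 of 8 was called higher and 0 lower (3.99% and 3.17% of all genes), and in BM CD44high 1 of 8 higher and 0 lower (3.64% and 4.03%). In lung CD44low, 1 was called higher and 1 lower (11.2% and 7.62%), and in lung CD44high 2 higher and 0 lower (5.42% and 8.03%). Between CD44high and CD44low cells of LN no member was called (0.117% of all genes higher and 0.0912% lower), nor in BM (0.0521% higher and 0.0521% lower), and 2 of 8 members passed an unadjusted p under 0.05 by limma in each, beside 10.1% of all genes in LN and 7.4% in BM. Within lung, 1 member was called higher and 2 lower in CD44high (2.49% and 8.8%). Counts this small, over 8 genes, give only a rough share, and the median difference of the 8 members is given with that of all genes. Against MFP it was -0.14 (all genes -0.18) in LN CD44low, 0.69 (-0.30) in LN CD44high, 1.23 (-0.04) in BM CD44low, 1.12 (-0.34) in BM CD44high, 0.53 (0) in lung CD44low and 0.63 (-0.04) in lung CD44high. Between CD44high and CD44low it was 0.19 (-0.13) in LN, 0.44 (-0.20) in BM and -0.65 (-0.01) in lung. It was -0.36 (0.20) for lung against LN and BM, and -0.93 (0.06) and -0.89 (0.18) for the interactions of lung with LN and with BM. With median-ratio scaling, the share of calls that were higher moved from 39.9% to 58.6% in LN CD44high and from 47.4% to 64.9% in BM CD44high against MFP, from 56.25% to 69.2% for CD44 in LN, and from 56.3% to 45.6% for lung against LN and BM. The median of all genes moved from -0.30 to 0.02 in LN CD44high and from -0.34 to 0.04 in BM CD44high.

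Lung lines of both CD44 states were also compared with the 4 LN and BM groups. Aldh1a1 was called higher, at 5.20 ± 0.45 (adjusted p = 7.49e-06), and from 5.02 to 6.83 over the alternatives other than leaving out a library. Aldh1a3 and Aldh3a1 were called lower, with 7.13% of all genes called higher and 5.54% lower. This average hides opposite positions within lung. Aldh1a1 was high in lung CD44low only, and Aldh3a1, which fell by 2.22 ± 0.27 on average (adjusted p = 8.02e-05), was at least 158 TPM in lung CD44high and at most 106 TPM in the LN libraries.

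The CD44 difference within lung was compared directly with that in LN and in BM, as an interaction. Against LN, the CD44high minus CD44low difference in lung was higher for Aldh3a1, by 2.9998 ± 0.63 (adjusted p = 0.00888), while Aldh1a1, at -6.15 ± 1.05 (adjusted p = 0.00259), and Aldh18a1, at -2.75 ± 0.67 (adjusted p = 0.0175), were lower; 3.39% of all genes were called higher and 7% lower. Against BM the values were 3.09 ± 0.63 for Aldh3a1 (adjusted p = 0.00829), -5.30 ± 1.05 for Aldh1a1 (adjusted p = 0.00671) and -2.66 ± 0.67 for Aldh18a1 (adjusted p = 0.0235). Aldh3b1 was called there as well, at -2.47 ± 0.73 with an adjusted p of 0.0471, and 2.77% of all genes were called higher and 5.89% lower. The Aldh3b1 call was lost in 12 of 21 alternative fits. When 1 library was left out at a time, the Aldh1a1 values lay between -7.59 and -4.71 against LN and between -6.73 and -3.86 against BM. The Aldh18a1 calls were lost without any 1 of 4 libraries in each interaction, among them the second library of each lung group, while the difference stayed between -3.46 and -2.03 against LN and between -3.04 and -2.28 against BM when any 1 library was left out.

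Without the fold threshold, the members with an adjusted p under 0.05 numbered 2 of 8 in LN CD44low against MFP (14% of all tested genes), 2 in LN CD44high (23.8%), 3 in BM CD44low (23.2%), 3 in BM CD44high (27%), 5 in lung CD44low (45%) and 5 in lung CD44high (36.1%). They numbered 0 for CD44 in LN (0.378%) and in BM (0.15%), 5 for CD44 in lung (30.7%), 7 for lung against LN and BM (59.9%), and 4 for each interaction (19.5% with LN and 15.3% with BM).

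Of the 11 family genes outside the member list, 8 were tested. Aldh1l1, the cytosolic counterpart of Aldh1l2, was 2.92 and 5.78 TPM in lung CD44low, listed at 0 in both lung CD44high libraries, and at most 5.16 TPM elsewhere. Against MFP it rose by 2.31 ± 0.41 in BM CD44high (adjusted p = 0.00265) and by 2.22 ± 0.41 in lung CD44low (adjusted p = 0.00165). It fell by 2.37 ± 0.41 from CD44low to CD44high in lung (adjusted p = 0.00175). Aldh6a1, an enzyme of valine breakdown, was 16.9 to 26.8 TPM in the 4 lung libraries and 1.27 to 7.40 TPM in the other 10, and rose by 2.52 ± 0.27 in lung against LN and BM (adjusted p = 3.18e-05). The other 6 tested genes were called in no comparison, and Aldh7a1 and Aldh9a1 were the most abundant of them, at 10.4 to 39.4 TPM and 12.4 to 41.4 TPM.

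Genes that work beside the members were read from lists set by pathway. Of 8 retinoid genes, 6 were tested. In lung CD44low against MFP 2 were called higher, beside 11.2% of all tested genes, among them Cyp26b1, which breaks down retinoic acid. Cyp26b1 was 39.75 and 67.0 TPM in lung CD44low and at most 6.63 TPM in the other 12 libraries. These are the libraries in which Aldh1a1 exceeded 600 TPM. In single cells Cyp26b1 was not high in lungL: it had 2 counts there (0.00901 per 10000) and 52 in lymphH (0.0983). Cyp26a1 was listed at 0 in all 14 libraries.

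Of 6 genes of the aryl hydrocarbon receptor pathway, which controls Aldh3a1 in several tissues, 4 were tested. Ahr, the receptor, was 98.9 and 103.7 TPM in lung CD44low and Nqo1, a target gene, was 21.6 and 22.65 TPM, where Aldh3a1 was at its lowest. In BM CD44high, where Aldh3a1 was at its highest, Ahr was 0.88 and 0.77 TPM and Nqo1 0.17 and 0.12 TPM. Ahrr, which was not tested, was highest in BM CD44high, at 1.13 and 0.99 TPM, against 0.12 and 0.7 TPM in lung CD44low. Cyp1a1, also not tested, was at most 0.63 TPM in any library. In single cells Ahr did not differ between the lung lines beyond counting error, at 0.204 (0.148 to 0.272) counts per 10000 in lungH and 0.194 (0.140 to 0.261) in lungL, while Nqo1 had 1 count in lungH and 229 in lungL. Tiparp, also a target, was 20.45 and 18.6 TPM in lung CD44low, 26.9 and 32.8 TPM in lung CD44high and 42.1 and 52.8 TPM in MFP, and was called in no comparison. Cyp1b1, another target, was 20.6 and 38.8 TPM in lung CD44low, 40.9 and 29.1 TPM in MFP and at most 1.10 TPM in the remaining libraries.

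Of 4 mitochondrial folate genes, all tested, Mthfd1l was 1.78 to 4.60 TPM in the 4 lung libraries and 13.7 to 28.55 TPM elsewhere. In single cells Mthfd1l was 0.195 counts per 10000 in lungH, 0.392 in lungL and 0.318 in lymphH, so lungL was not low. In bulk, Mthfd2 fell by 2.19 ± 0.46 from CD44low to CD44high in lung (adjusted p = 0.00558), as Aldh18a1 did. Of 5 proline genes, all tested, Prodh, which degrades proline, was at most 0.57 TPM in lung and at least 3.21 TPM elsewhere. Between CD44high and CD44low in lung, 0 of the 5 proline genes were called, and 2 of the 4 folate genes were called lower, beside 2.49% of all tested genes called higher and 8.8% lower.

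The genes with the pattern most similar to each tested member were found by Pearson correlation of log2(TPM + 1) over the 14 libraries, among 9412 genes with a mean of at least 5 TPM. The libraries fall into groups of 2, so r mostly follows group means. For Aldh1a1 these were Nnmt (r = 0.961), at 49.2 and 37.9 TPM in lung CD44low, and Omd (r = 0.961). For Aldh1a3 they were Mboat2 (r = 0.967) and Aqp5 (r = 0.965), and for Aldh3a2 the closest was Slc46a3 (r = 0.923). For Aldh2 they were Pcdhgb1 (r = 0.956) and Galnt7 (r = 0.898), and for Aldh3b1 Rida (r = 0.920) and Vps28 (r = 0.919). Aldh1l2 was most like Ugdh (r = 0.908) and Gpsm2 (r = 0.872), and Aldh18a1 like Ddost (r = 0.887) and Hsp90b1 (r = 0.879). For Aldh3a1 the closest were Gpx4-ps2 (r = 0.883), a pseudogene that can share reads with its parent gene, and Cd14 (r = 0.878).

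The single-cell data hold 1 library for each kind of line, so no test was possible and each interval covers counting error only. Cells with more than 250 genes and under 10% mitochondrial counts were kept: 1236 of 3623 barcodes in lungH, 348 of 2808 in lungL and 2562 of 3297 in lymphH. Kept cells held 2210623, 2220759 and 5287425 counts, with a median of 557, 4011 and 585 counts per cell. Barcodes are numbered in the files, so cells shared between libraries could not be counted, and doublets were not called. Of the 7 epithelial markers, Epcam had 3 counts in lungH, 0 in lungL and 936 in lymphH, and Cdh1, Cldn7 and Krt14 had 0 in both lung libraries. The keratins did not follow: Krt18 was 2.59 counts per 10000 in lungH, 0.522 in lungL and 1.17 in lymphH, and Krt8 was 1.67, 0.135 and 2.80. Cldn3 was at 0 in lungH, 0.198 in lungL and 2.94 in lymphH. In lungL, Acta2 reached 45.6 and Col1a2 14.4 counts per 10000, and Dcn, at 4091 and 4315 TPM in the bulk libraries, had 22 counts.

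Aldh3a1 was the leading member in lungH and low in the other libraries. Its level was 14.4 counts per 10000 in lungH (95% exact Poisson interval 13.9 to 14.9), 0.329 in lungL (0.258 to 0.413) and 0.0416 in lymphH (0.0261 to 0.063). The ratio of lungH to lungL was 43.7 (34.6 to 55.9) and that of lungH to lymphH 345 (228 to 551). As a mean of per-cell values, which weights shallow cells as much as deep ones, the level was 13.8 in lungH and 0.550 in lungL, a smaller ratio outside that interval. A count was seen in 556 of 1236 lungH cells (45.0%, exact binomial interval 42.2 to 47.8%), in 33 of 348 lungL cells (9.48%, 6.62 to 13.1%) and in 17 of 2562 lymphH cells (0.664%, 0.387 to 1.06%). When cells were thinned to 1000 counts each, which 222 of 1236 lungH, 238 of 348 lungL and 306 of 2562 lymphH cells reached, the shares were 63.6%, 3.14% and 0.327%.

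Of the 1236 lungH cells, 680 had no Aldh3a1 count, 176 had 1, and 175 had 5 or more, with 89 in the highest cell. These cells differed in depth from 390 to 19956 counts, so the spread of raw counts is not a spread of rates. The level per 10000 was 13.4 in kept cells below the median depth and 14.5 in those above it. Barcodes with 250 genes or fewer gave 13.7 per 10000, so a similar level was present outside the kept cells. In lungL such barcodes gave 0.372 (0.247 to 0.538) against 0.329 in kept cells. Free RNA and poor cells of the same line cannot be told apart in such barcodes.

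**Figure D4:**
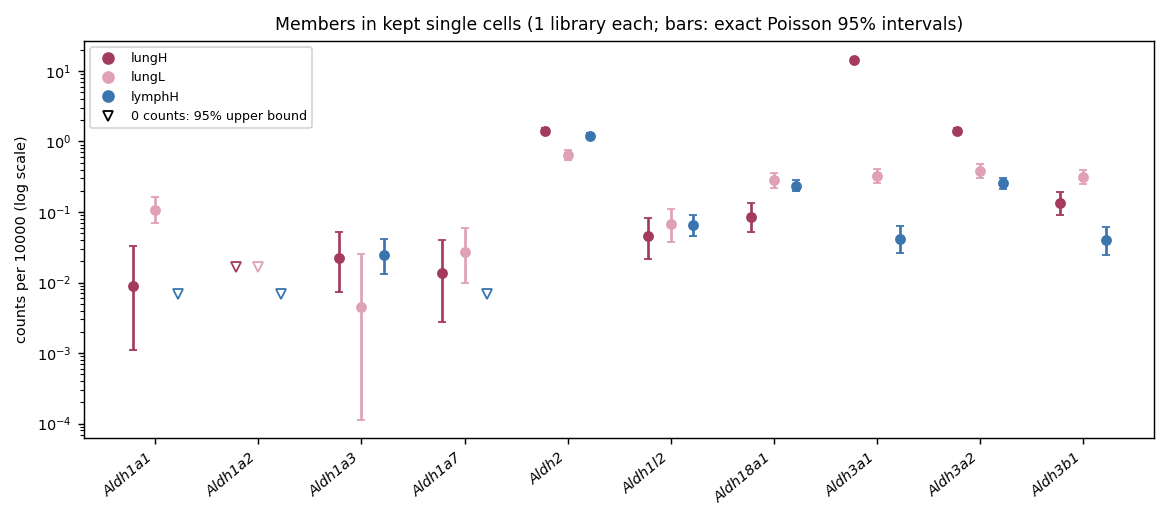
Points give counts per 10000 (vertical axis, log scale) of the 10 members (horizontal axis) in the kept cells of lungH, lungL and lymphH, 1 library each, with exact Poisson 95% intervals, and open triangles mark the upper bound where the count was 0. Aldh3a1 in lungH, at 14.4, is the highest value, and Aldh1a2 has no count in any library.

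Aldh2 was 1.41 (1.26 to 1.58) counts per 10000 in lungH, 1.201 (1.11 to 1.30) in lymphH and 0.648 (0.547 to 0.763) in lungL. The ratio of lungH to lymphH was 1.18 (1.02 to 1.35) and that of lungH to lungL 2.18 (1.78 to 2.67). It made up 64.4% of all member counts in lymphH, 29.9% in lungL and 8.07% in lungH, where Aldh3a1 made up 82.1%. The order was reversed in bulk lung CD44high, with Aldh2 at 316 and 306 TPM and Aldh3a1 at 158 and 229 TPM. Aldh3a2 was 1.41 (1.26 to 1.58) in lungH, 0.383 (0.306 to 0.473) in lungL and 0.255 (0.214 to 0.302) in lymphH, and was highest in lungH as in the bulk lung CD44high libraries. Barcodes of lungH with 250 genes or fewer gave 1.75 (1.49 to 2.05), above the level of kept cells.

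Aldh3b1 and Aldh18a1 were higher in lungL than in lungH. Aldh3b1 was 0.315 (0.246 to 0.398) in lungL and 0.136 (0.0916 to 0.194) in lungH, a ratio of lungH to lungL of 0.431 (0.271 to 0.669), and Aldh18a1 was 0.284 (0.218 to 0.363) and 0.0859 (0.0517 to 0.134), a ratio of 0.303 (0.171 to 0.513). In lymphH Aldh3b1 was 0.0397 (0.0246 to 0.0607) and Aldh18a1 0.236 (0.197 to 0.282). For Aldh1l2, with 10 counts in lungH, 15 in lungL and 35 in lymphH, the intervals of all 3 ratios included 1.

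Aldh1a1 was sparse in single cells. It had 24 counts in 14 of 348 lungL cells (0.108 per 10000, 0.0692 to 0.161), 2 counts in 1 lungH cell and 0 counts in 2562 lymphH cells, which allows a level of up to 0.00698 per 10000 (95% upper bound). The 95% lower limit of the ratio of lungL to lymphH was 14.3, and the ratio of lungH to lungL was 0.0837 (0.00959 to 0.337). The 2 counts in lungH and 0 in lymphH do not order those lines. Barcodes of lungL with 250 genes or fewer gave 5 counts, 0.0664 per 10000 (0.0216 to 0.155), an interval that overlaps that of the kept cells. The rank of Aldh1a1 among the members differed between the assays: it led in bulk lung CD44low, at 610.2 and 600.6 TPM against 206 and 249.9 TPM for Aldh2, while in lungL it had 24 counts against 144 for Aldh2. TPM divides by transcript length and counts from transcript 3' ends do not, the assays differ, and the labels do not tie the single-cell library to either bulk clone. Their part in this difference was not tested.

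Aldh3a1 also differed between assays in lymph node. Bulk LN CD44high had 106 and 69.1 TPM, while lymphH had 22 counts in 2562 cells. Aldh1a3 had 5 counts in lungH, 1 in lungL and 13 in lymphH, with ratios whose intervals all included 1. Aldh1a7 had 3, 6 and 0 counts, and of its ratios that of lungL to lymphH had a 95% lower limit above 1, at 2.80. Aldh1a2 had no count in any of the 4146 kept cells.

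Within lung, Aldh1a1, Aldh18a1 and Aldh3b1 were lower in CD44high in both assays, and Aldh2, Aldh3a1 and Aldh3a2 were higher in both, with single-cell intervals that excluded a ratio of 1. These 6 signs were the same under each of the 5 alternative cell filters and weightings. Of the single-cell ratios, those of Aldh1a3 (5.02, 0.562 to 238) and Aldh1l2 (0.670, 0.269 to 1.59) had intervals that included 1, and as a mean of per-cell values Aldh1l2 was 0.0544 in lungH and 0.0426 in lungL, the opposite order. The bulk differences of Aldh1a3, Aldh2 and Aldh1l2 did not pass an adjusted p of 0.05.

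**Figure D5:**
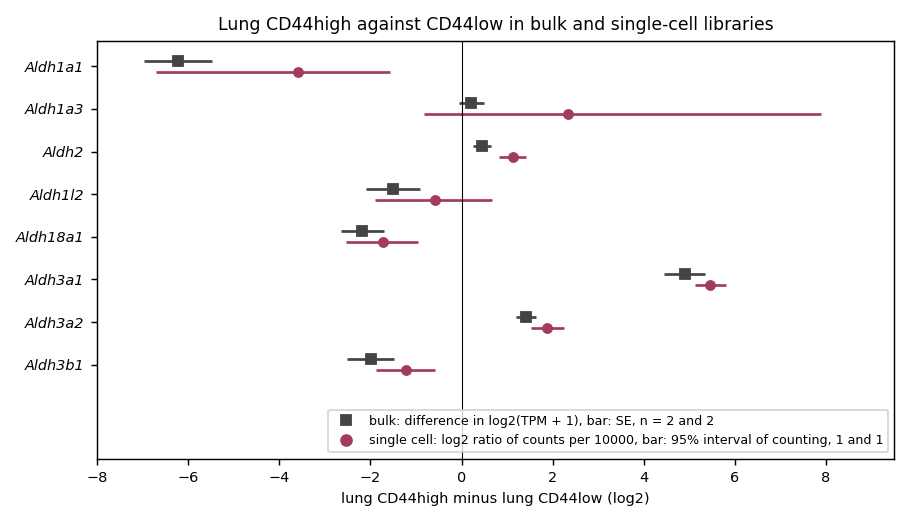
For the 8 tested members (vertical axis), squares give the bulk difference of lung CD44high from lung CD44low in log2(TPM + 1) with its standard error, and circles the log2 ratio of lungH to lungL counts per 10000 with its 95% counting interval. The intervals of Aldh1a3 and Aldh1l2 cross 0, and the other 6 members lie on the same side of 0 in both assays, with Aldh3a1 at 4.90 in bulk and a single-cell ratio of 43.7.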

How the data were processed

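Bulk RNA was taken from 14 libraries of sorted lines, made by a modified SMART-seq2 protocol. The authors aligned reads with STAR to mm10 and estimated TPM (length-normalized transcript abundance, with the same total in every library) with RSEM, and the deposited TPM values were used here. The study tested read counts with an exact test, and since the bulk table used here holds TPM, limma 3.58.1 (R 4.3.3) was fitted instead to log2(TPM + 1) over 7 group means with a mean-dependent trend, for 15348 of 55450 genes with at least 1 TPM in 2 libraries. The fit left 7 residual degrees of freedom, and p-values measure the spread between clonal isolates. Read depth is not recoverable from TPM. For single cells, the authors quantified 3' libraries with kallisto and deposited counts per barcode, and whether these are counts of unique molecules is not given in the sources used here. Counts were summed over kept cells and given per 10000, with exact 95% intervals. Members, pathway lists and tests were chosen with earlier results of these data known. The genes named were the members, the called or most abundant genes of each list, and the 2 genes most like each member; some of these are not reported here. Only the bulk fit was tested on simulated data. Alternatives were another pseudocount, filter, scaling and fit, and leaving out each library.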

Additional observations from a re-analysis of the deposited data

Results flagged for a closer look

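The CD44 difference of some members differed between tissues by the interaction test (limma, 2 libraries per group). Against LN, the difference between CD44high and CD44low in lung was larger by 2.9998 for Aldh3a1, and the values were -2.75 for Aldh18a1 and -6.15 for Aldh1a1. Against BM, it was larger by 3.09 for Aldh3a1, and the values were -2.47 for Aldh3b1, -2.66 for Aldh18a1 and -5.30 for Aldh1a1. Both lung groups were far from LN and BM in epithelial markers, and lung CD44low was also far from them in fibroblast markers. In lung CD44high most of the summed fibroblast TPM was Dcn. The part of those markers in these values was not tested.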

How the results depend on the processing

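Over 19 called member values and 379 refits that kept the fold threshold, 353 kept the call, 26 lost it and 0 changed direction. With the fold threshold dropped, the members called were 2 in LN CD44low, 2 in LN CD44high, 3 in BM CD44low, 3 in BM CD44high, 5 in lung CD44low and 5 in lung CD44high against MFP, 5 for CD44 in lung and 7 for lung against LN and BM. A pseudocount of 0.1 gave 1 in LN CD44low, 3 in BM CD44low, 3 in lung CD44low and 3 in lung CD44high against MFP, 5 for CD44 in lung, 4 for lung against LN and BM and 3 for the interaction with BM. Values it newly called include Aldh1a3 in lung CD44low (-2.97) and Aldh18a1 in lung CD44high against MFP (-2.06), and Aldh1l2 in lung against LN and BM (-2.04). Median-ratio scaling gave 1 in LN CD44high and 3 in BM CD44high. Fitting only the groups compared gave 0 in BM CD44low and 1 in lung CD44high. The cause of these changes was not tested.

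Leaving out each library in turn gave 0 to 1 members called in LN CD44low (1 without LN CD44low replicate 2), 0 to 0 in LN CD44high, 1 to 2 in BM CD44low (2 without either lung CD44high replicate), 1 to 1 in BM CD44high, 2 to 2 in lung CD44low and 1 to 3 in lung CD44high against MFP (1 without lung CD44high replicate 2). It gave 0 to 0 for CD44 in LN, 0 to 1 in BM (1 without BM CD44low replicate 1), 2 to 3 in lung, 3 to 3 for lung against LN and BM, and 2 to 4 for each interaction (2 against BM without BM CD44low replicate 2, BM CD44high replicate 1 or lung CD44low replicate 2).

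Samples with the same replicate number did not deviate together: over 21 pairs the correlation ran from -0.194 to 0.168 (median -0.0367), so the number is no pairing. With a replicate block, 3 members were called in the interaction of lung with BM in place of 4, without Aldh3b1, and no other member count changed. In single cells, 119 of 125 recomputed levels of members with a count stayed within their counting interval and 6 did not, all 6 as means of per-cell values (Aldh1a3, Aldh3a1 and Aldh3a2 in lungH, Aldh3a1 and Aldh3b1 in lungL, and Aldh1l2 in lymphH). TPM keeps no depth, and sparse members (Aldh1a1, Aldh1a3, Aldh1a7 and Aldh1l2) are limited by counting error in single cells.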
